A study of Mus musculus with 10 samples.

Results

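The comparison described here asks what an agonistic antibody against CD40 added to a CSF1R inhibitor in T cells from mouse melanomas. It set the 2 libraries from mice given both agents (CSF1Ri+CD40) against the 2 libraries from mice given the inhibitor alone (CSF1Ri), 4 of the 10 libraries of the series. Genes entered when at least 10 normalized counts were present in at least 2 of these 4 libraries, which held for 13546 of the 48825 genes listed. All mice carried the strain label BrafCA; Tyr::CreER; Ptenlox4-5, in which a recombinase driven by the tyrosinase promoter acts in melanocytes once it is induced; the genotype label read wild type in every group. The CSF1Ri mice ate chow with PLX6134 at 600 mg/kg, and the CSF1Ri+CD40 mice ate the same chow and were injected with the antibody FGK4.5 at 10 mg/kg every 3 days. Treatment began 30 days after tumor induction and ran for up to 30 days or until tumors reached 2 cm3. The labels give age-matched mice but no ages. The other groups were 3 libraries from mice on normal chow (Control) and 3 from mice on normal chow given the antibody (CD40); they lent their spread to the test and give the antibody's difference without the inhibitor. Each library pooled at least 3 tumors, so p-values measure the spread between pools. The libraries are called CSF1Ri 1 (whose title has no number), CSF1Ri 6, CSF1Ri+CD40 1 and CSF1Ri+CD40 3.

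CSF1R is the receptor for the growth factors that keep tissue macrophages alive, and inhibitors of its kinase reduce macrophage numbers in many tumors. CD40 sits on dendritic cells, macrophages and B cells. Its ligand on helper T cells, or an agonistic antibody, prompts these cells to present antigen and to make cytokines that act on T cells. Neither agent is aimed at the T cell itself. Cytotoxic T cells kill with perforin and granzymes and secrete interferon gamma, which switches on a broad set of genes in the cells around them, T cells included.

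By their titles the libraries are T cells, but the tissue field gives tumor macrophages. Transcripts of the antigen receptor complex were high in each of the 4 libraries: Cd3e stood at 19445 and 22898 normalized counts with the inhibitor and at 23096 and 22407 with both agents. Trac, the constant region of the receptor's alpha chain, stood at 22214 and 21369 against 22928 and 22558. Of 24 macrophage and monocyte genes, 15 passed the filter on low values, and Nos2, Msr1 and Trem2 were at 0 in all 4 libraries. The labels name no step that selects T cells. In such bulk samples, fewer cells of a type and less RNA per cell cannot be told apart.

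Normalization had brought the 4 libraries to like totals. Their normalized counts summed to between 12513603 and 12750973, and an estimate of sequenced reads, made from how far apart low values lie, gave 10.3 M reads in CSF1Ri+CD40 3, the shallowest, and 15 M in CSF1Ri 1, the deepest. Y-linked transcripts summed to 0 or 1 in each, and were not summed in Control or CD40. Xist, a noncoding RNA of the X chromosome, stood at 1955 and 857 with the inhibitor and at 1412 and 2921 with both agents. It was uneven elsewhere, at 12, 281 and 3217 in Control and at 672, 0 and 5 in CD40. Its bearing on the comparisons that use those groups was not tested. The 2 CSF1Ri libraries resembled each other more than the CSF1Ri+CD40 libraries did. Over 8695 genes with a mean of at least 100, Spearman's rho across genes was 0.941 between CSF1Ri 1 and CSF1Ri 6 and 0.887 between CSF1Ri+CD40 1 and CSF1Ri+CD40 3. Between groups it ran from 0.878 to 0.93. The median absolute log2 difference was 0.27 within the CSF1Ri pair, 0.39 within the CSF1Ri+CD40 pair and 0.26 between the group means. CSF1Ri+CD40 3 was the library with the most RNA of fibroblast and keratinocyte genes, and CSF1Ri+CD40 1 the one with the most of mast cell genes; their values stand with those genes.

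No gene passed an adjusted p under 0.05 (0 of 13546, or 0%, limma with Benjamini-Hochberg adjustment). The smallest adjusted p was 0.4, for Anxa8. Higher in CSF1Ri+CD40 at an unadjusted p under 0.05 were 228 genes (1.68%), and lower were 302 (2.23%), together 530 against 677 expected by chance. Both CSF1Ri+CD40 libraries lay above both CSF1Ri libraries for 2465 genes (18.2%) and below them for 2374 (17.5%). With a difference of at least 2-fold as well, 854 genes (6.30%) lay above and 790 (5.83%) below. The median log2 difference over all genes was -0.01, and 49.3% of them had a positive difference. Counts given below for lists of genes are to be read beside these shares. With 2 against 2 libraries an exact two-sided permutation test cannot go below 0.333. The genes below are therefore given by their values, and each has an adjusted p of 0.743 or 1 unless another is stated. A log2 difference is CSF1Ri+CD40 minus CSF1Ri, of log2(normalized count + 1), ± its standard error.

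Genes of killing were mostly higher with both agents. Of 18 cytotoxic effector genes tested, 14 had a positive difference, and the groups did not overlap for 12 on the higher and 3 on the lower side, or 66.7% and 16.7%. Their median log2 difference was 0.37, against -0.01 over all genes, and 0.23 without CSF1Ri 1. Gzmk (chr13:113171608-113225908, GRCm38), a granzyme of effector-memory CD8 T cells, was the gene of the list with the smallest p. It stood at 442 and 345 normalized counts with the inhibitor and at 2491 and 2651 with both agents. The pairs were far apart, with a log2 difference of 2.72 ± 0.76, or 6.57-fold (unadjusted p = 0.00461). No Control or CD40 library reached these levels, the highest being CD40 1 at 710.

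Other parts of the killing machinery differed by less. Gzmb stood at 3061 and 4732 against 6901 and 4972, and Prf1, which encodes the pore-forming perforin, at 366 and 778 against 839 and 874. For both genes the pairs did not overlap, but the gap between them was small beside the spread of the CSF1Ri pair (log2 differences of 0.62 ± 0.46 and 0.68 ± 0.46). Fasl, the death ligand that engages Fas, stood at 771 and 834 against 1475 and 1558, and Serpinb9, an inhibitor that shields killer cells from granzyme B, at 510 and 483 against 763 and 841. Klrg1 (chr6:122270596-122282882), an inhibitory receptor that marks late effector cells, was found at 1900 and 1661 against 3009 and 3350, a log2 difference of 0.84 ± 0.24 (unadjusted p = 0.0051). On the lower side were Gzmc, a granzyme of strongly stimulated cells (256 and 749 against 163 and 204), Tnfsf10, the death ligand TRAIL (571 and 730 against 452 and 404), and Lamp1, a membrane protein of lytic granules (490 and 571 against 275 and 320). Natural killer cells carry many of the same genes: the list for them summed to 5401 and 6664 against 7255 and 6775. Of the 12 tested, 7 were higher and 5 lower (median 0.18, or -0.08 without CSF1Ri 1). The pairs did not overlap for 4 on the higher and 0 on the lower side (33.3% and 0%). Klre1 of this list stood at 28 and 50 against 200 and 190, and Itga2 at 32 and 36 against 102 and 183. Ncr1, the defining receptor of natural killer cells, stood at 327 and 494 against 782 and 295, with overlapping pairs. The part of natural killer cells in the values of the cytotoxic genes was not tested.

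**Figure D1:**
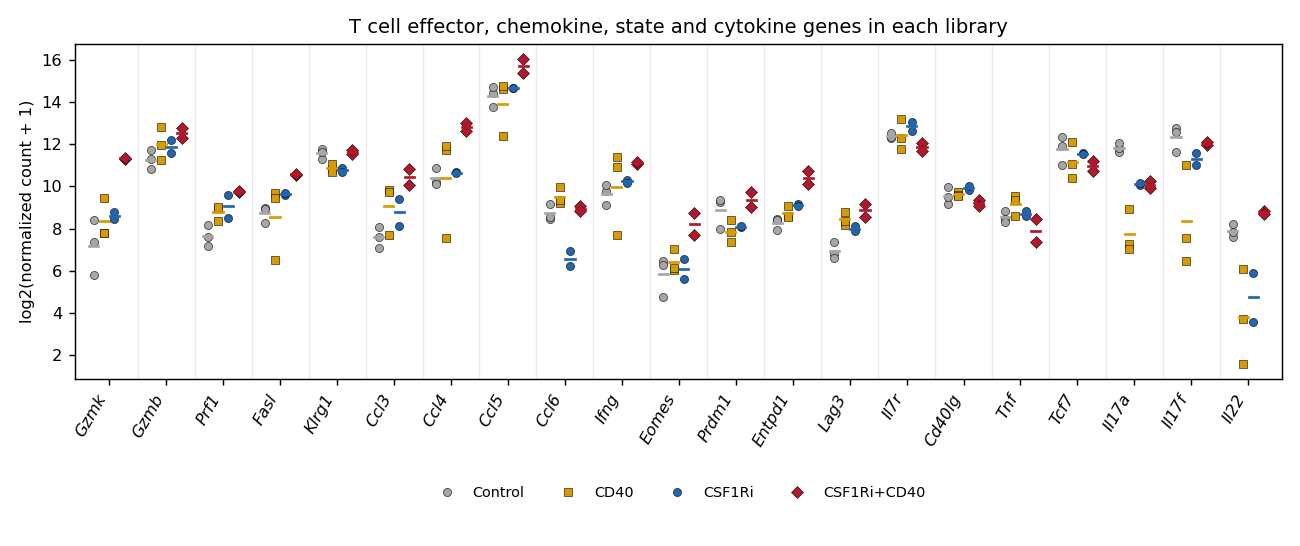
Normalized counts of 21 T cell genes on a log2(count + 1) scale in each library of the 4 groups (points) with the group mean (bar). Gzmk, Ccl4, Ccl5, Eomes and Entpd1 lie higher in both CSF1Ri+CD40 libraries than in any other library, whereas Il7r, Cd40lg and Tnf lie below both CSF1Ri libraries.

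Chemokine genes showed the largest median difference among the lists of T cell and immune signalling genes. Of 25 listed, 19 were tested, 15 had a positive difference, 9 did not overlap on the higher and 1 on the lower side (47.4% and 5.26%), and the median log2 difference was 1.03. Without CSF1Ri 6 the median was 0.50, and without CSF1Ri+CD40 1 it was 1.58. Ccl3, Ccl4 and Ccl5, chemokines that activated CD8 T cells secrete in bulk, were all higher in both libraries. Ccl4 (chr11:83662584-83664683) stood at 1640 and 1581 against 6380 and 8292, or 4.51-fold, and Ccl3, its neighbor, at 276 and 686 against 1074 and 1830. Ccl5 stood at 26443 and 26038 against 42854 and 67337, a log2 difference of 1.03 ± 0.65. Ccl5 also counts among the cytotoxic genes. In CD40 3, which enters the estimate of spread, Ccl4 stood at 188, far below CD40 1 and CD40 2 at 3367 and 3922.

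Ccl6 (chr11:83587882-83593087), a chemokine made mainly by myeloid cells, had the smallest p of the list. It stood at 121 and 73 with the inhibitor and at 534 and 452 with both agents, a log2 difference of 2.37 ± 0.41 (unadjusted p = 1.40e-04, adjusted p = 0.743 in limma). The Control libraries, at 349, 373 and 567, lay near the CSF1Ri+CD40 pair, so that the CSF1Ri pair was the low one. Ccl2, which recruits monocytes, stood at 74 and 0 against 208 and 77. Ccl22, a ligand of CCR4 made by dendritic cells, stood at 1390 and 1230 against 2451 and 1577, while Ccl1, a T cell chemokine that binds CCR8, stood at 3066 and 3434 against 2572 and 2362. Xcl1, with which CD8 T cells attract cross-presenting dendritic cells, overlapped at 639 and 1312 against 844 and 724. The interferon-induced Cxcl10 overlapped too, at 184 and 68 against 70 and 453.

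Genes that respond to interferon gamma leaned to the higher side. Of 29 tested, 24 had a positive difference, 19 did not overlap on the higher side and 2 on the lower side (65.5% and 6.9%), and the median log2 difference was 0.31. The median ran from 0.31 to 0.38 when each of the 4 libraries was left out in turn. The differences were small for single genes. Ifng itself (chr10:118441046-118445892) stood at 1272 and 1157 against 2145 and 2267, a log2 difference of 0.86 ± 0.92 with CD40 3 at 203 and CD40 1 at 2659 in the estimate of spread. Irf1, a transcription factor induced directly by the interferon receptor, stood at 2740 and 2790 against 3187 and 4252 (0.41 ± 0.22).

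The 3 promoters below are shown because their genes had non-overlapping pairs and they hold interferon signal elements: GAS in all 3, and ISRE in Oas1a as well. Each runs from 250 bases before to 50 bases after a transcription start in RefSeq's GRCm38.p6 annotation, on the gene's own strand. Capitals mark matches to TTCNNNGAA, an element of promoters that respond to interferon gamma (called GAS), and to a pair of GAAA blocks with any 2 bases between them, the element bound by the type I interferon complex (called ISRE), on either strand; GAS reads the same on both. Irf1 lies on the plus strand at chr11:53769764-53770063, with GAS at position -90 from the start. Serpina3g, a serine protease inhibitor of activated T cells, lies on the plus strand at chr12:104235897-104236196, with GAS at -33. Oas1a, an antiviral enzyme, lies on the minus strand at chr5:120907476-120907775, with GAS at -98 and 2 ISRE matches that overlap each other nearer to the start.
Irf1: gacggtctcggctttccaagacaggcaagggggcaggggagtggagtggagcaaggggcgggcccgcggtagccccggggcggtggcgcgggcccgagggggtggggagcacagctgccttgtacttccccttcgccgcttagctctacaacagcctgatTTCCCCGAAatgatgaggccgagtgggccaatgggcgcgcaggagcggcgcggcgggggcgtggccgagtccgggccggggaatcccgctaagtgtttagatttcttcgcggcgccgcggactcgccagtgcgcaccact
Serpina3g: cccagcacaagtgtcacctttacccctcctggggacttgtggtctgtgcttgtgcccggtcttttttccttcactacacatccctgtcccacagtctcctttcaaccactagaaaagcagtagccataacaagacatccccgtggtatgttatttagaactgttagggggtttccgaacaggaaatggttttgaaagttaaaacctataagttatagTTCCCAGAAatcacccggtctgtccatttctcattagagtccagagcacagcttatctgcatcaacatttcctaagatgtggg
Oas1a: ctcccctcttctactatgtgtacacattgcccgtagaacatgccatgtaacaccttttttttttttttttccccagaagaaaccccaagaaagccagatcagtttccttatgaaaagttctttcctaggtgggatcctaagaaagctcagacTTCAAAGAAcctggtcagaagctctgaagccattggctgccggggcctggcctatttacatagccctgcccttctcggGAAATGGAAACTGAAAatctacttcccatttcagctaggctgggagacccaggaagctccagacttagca
Of the 30 genes in the interferon gamma list, 19 had a promoter in the table, 22 promoters in all; 10 of the 22 held GAS and 11 held ISRE. Among all 32851 promoters of the same length, 8.3% held GAS and 3.44% held ISRE. A match is a description of the letters and does not show that a factor was bound.

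Serpina3g stood at 2011 and 2397 against 3731 and 4079, a log2 difference of 0.83 ± 0.45, and Oas1a at 304 and 290 against 576 and 591 (0.97 ± 0.44). Both pairs were tight and did not overlap. Among the interferon-induced GTPases, which attack the vacuoles of intracellular microbes, Iigp1 stood at 1278 and 1549 against 2700 and 2562 (0.90 ± 0.38) and Gbp4 at 1551 and 1210 against 1885 and 2188 (0.57 ± 0.27). Gbp8 stood at 165 and 154 against 433 and 398, and Igtp at 3793 and 4619 against 5483 and 5023. Gbp2 and Gbp5 overlapped, the latter at 128 and 45 against 21 and 233. These GTPases are closely related, and reads shared between them may have been assigned unevenly. Of 27 type I interferon genes tested, 20 had a positive and 6 a negative difference (median 0.15, or 0.38 without CSF1Ri+CD40 1). Of them, 10 did not overlap on the higher and 0 on the lower side (37% and 0%, against 18.2% and 17.5% of all genes). Isg15, a ubiquitin-like antiviral modifier, stood at 48 and 64 against 111 and 242.

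The class I antigen presentation pathway, itself induced by interferon, had 17 of 22 genes with a positive difference, 10 not overlapping on the higher and 3 on the lower side (45.5% and 13.6%), and a median of 0.15. H2-Q6, a nonclassical class I molecule, stood at 2167 and 2294 against 3223 and 3604, a log2 difference of 0.61 ± 0.19 (unadjusted p = 0.00946). H2-Q7 stood at 3199 and 3757 against 4716 and 4403. Tapbp, which loads peptide onto class I molecules, stood at 4310 and 4271 against 5672 and 5267, and Psmb8, a subunit of the immunoproteasome, at 9058 and 9259 against 12228 and 10568. The class I light chain B2m differed by only 0.11 ± 0.31, at 90588 and 95946 against 97093 and 104680. Of 13 genes of class II presentation, which T cells of mice scarcely use, 7 had a positive difference and the median was 0.04.

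**Figure D2:**
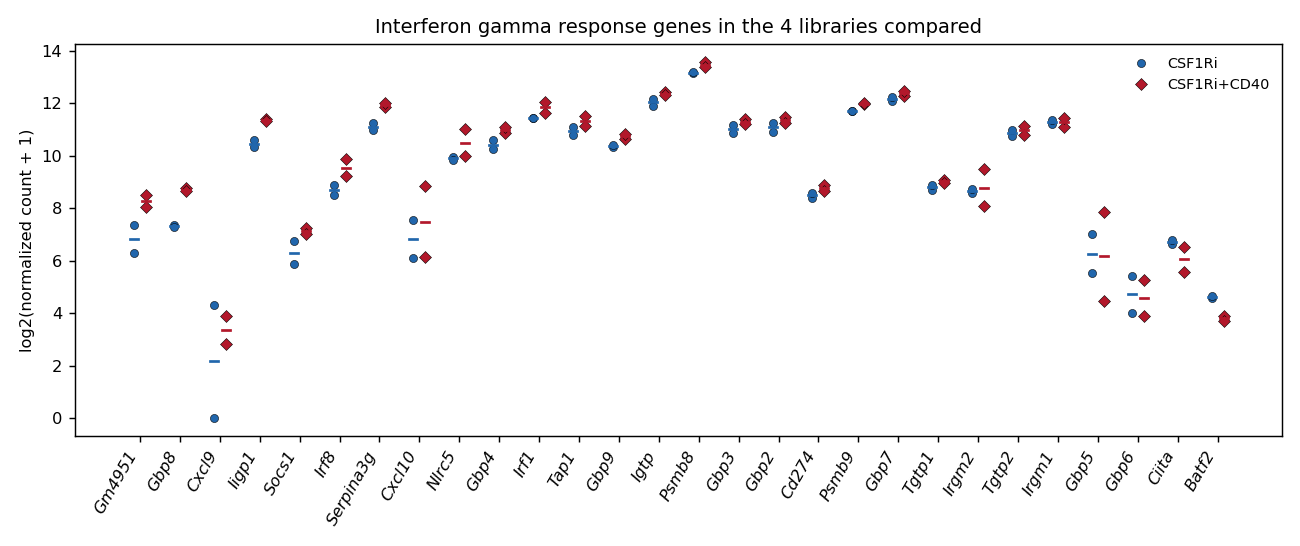
Of the 29 interferon gamma response genes tested, 28 are drawn, ordered by their difference, on a log2(normalized count + 1) scale; points are the 2 libraries of each group and bars their means. The red CSF1Ri+CD40 points lie above the blue CSF1Ri points for 18 genes, and below them for Ciita and Batf2.

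Of 7 lineage genes of CD8 and CD4 T cells, 6 had a positive difference, with 3 not overlapping on the higher and 0 on the lower side (42.9% and 0%) and a median of 0.22, or 0.06 without CSF1Ri+CD40 3. Cd8a stood at 3223 and 3685 against 3785 and 4947 (0.33 ± 0.48), and Cd4 overlapped at 3591 and 4504 against 4203 and 2403 (-0.34 ± 0.28). Foxp3, which defines regulatory T cells, stood at 1841 and 1637 against 2673 and 2231 (0.49 ± 0.32), while the 23 regulatory T cell genes tested divided into 11 higher and 12 lower (median -0.02), with 8 not overlapping on the higher and 4 on the lower side (34.8% and 17.4%). Without CSF1Ri+CD40 3 the regulatory median was 0.22, with 16 of 23 higher. Eomes, a T-box factor of effector-memory and exhausted CD8 T cells and of natural killer cells, stood at 48 and 92 against 208 and 425, a log2 difference of 2.14 ± 0.78 (unadjusted p = 0.0188). Tbx21, which encodes the related factor T-bet, overlapped at 58 and 80 against 164 and 79.

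Genes tied to exhaustion, the state of chronically stimulated T cells, did not move as 1 block. Of 21 tested, 10 were higher and 11 lower (median -0.01), yet 9 did not overlap on the higher side and 2 on the lower side (42.9% and 9.52%). The median ran from 0.06 to 0.34 when each of the 4 libraries was left out in turn. Without CSF1Ri+CD40 3, 16 of 21 were higher. Entpd1 (chr19:40612366-40741602) encodes the ectonucleotidase CD39, which marks terminally exhausted CD8 T cells and regulatory T cells and degrades extracellular ATP. It stood at 572 and 541 against 1106 and 1682, a log2 difference of 1.29 ± 0.35 (unadjusted p = 0.00363). Prdm1, which encodes the effector factor BLIMP1, stood at 268 and 278 against 517 and 846 (1.27 ± 0.53), and Tox2, a factor of the exhaustion program, at 32 and 0 against 114 and 89. Lag3 stood at 234 and 277 against 575 and 375, and Tigit at 4054 and 3079 against 5479 and 5657. Ctla4 stood at 7512 and 6171 against 7945 and 7676, with a small gap between the pairs.

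A pair of inhibitory receptors did not separate. Pdcd1 (PD-1) stood at 5196 and 5187 against 5676 and 3324, and Havcr2 (TIM-3) at 641 and 952 against 852 and 680. Nt5e, which encodes CD73 and completes the breakdown of ATP to adenosine that CD39 begins, lay on the other side at 899 and 1074 against 666 and 593. Cd38, an ectoenzyme of activated T cells, stood at 507 and 535 against 635 and 1398. The listed name Lilrb4, of an inhibitory receptor, matched no gene here, and Lilrb4a and Lilr4b were chosen after their values were seen. Their pairs lay well apart. Lilrb4a stood at 382 and 322 against 940 and 968 (1.44 ± 0.34) and its near-identical neighbor Lilr4b at 200 and 201 against 702 and 489 (1.54 ± 0.43). Reads of these 2 genes can be shared.

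Genes of naive and memory-like T cells lay on both sides. Of 17 tested, 9 were higher and 8 lower (median 0.02, or -0.39 without CSF1Ri 6), with 3 not overlapping on the higher and 7 on the lower side (17.6% and 41.2%). Il7r (chr15:9505788-9530176), the receptor for the survival cytokine of resting T cells, stood at 8570 and 6433 against 4226 and 3319, a log2 difference of -0.99 ± 0.38 (unadjusted p = 0.0264). Slamf6, a receptor of progenitor-like cells, stood at 2345 and 2794 against 1804 and 1666. Ccr7, which guides cells to lymph nodes, stood at 3189 and 2870 against 2041 and 2262. Tcf7, which encodes TCF-1, stood at 3031 and 3011 against 2390 and 1674 (-0.59 ± 0.51). On the higher side, Id3, a factor that preserves memory potential, stood at 442 and 354 against 459 and 588, and Foxo1, which drives Il7r and other genes of resting cells, at 619 and 617 against 703 and 889.

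Of 16 genes of tissue residency and egress, 6 were higher and 10 lower (median -0.30, or -0.19 without CSF1Ri 6), with 3 not overlapping on the higher and 6 on the lower side (18.8% and 37.5%). S1pr1, the receptor that leads T cells out of tissue, stood at 2389 and 2303 against 1945 and 1680. Cd69, which holds T cells in tissue, stood at 5955 and 5528 against 6184 and 9429, and Rgs1, which dampens chemokine receptor signals, at 15500 and 13080 against 16998 and 22356. Itgae, the integrin chain CD103 that binds epithelium, stood at 2893 and 3332 against 2022 and 1974. Ccr1, a receptor for Ccl3 and Ccl5, stood at 52 and 167 against 9 and 28.

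Cytokine genes of T cells split, with 13 of 26 higher and 13 lower. Il22 (chr10:118204942-118210047), a cytokine of type 17 cells that acts on epithelium, showed the widest gap among them: it stood at 11 and 58 with the inhibitor and at 455 and 419 with both agents, a log2 difference of 4.04 ± 1.25, or 16.4-fold (unadjusted p = 0.008). Il17f (chr1:20777146-20790617), made by the same cells, stood at 2044 and 3067 against 3997 and 4370 (0.74 ± 1.08). Il17a (chr1:20730905-20734496) stood at 1070 and 1138 against 1215 and 978 and did not separate (-0.02 ± 0.51). Tnf, on the other hand, stood at 385 and 452 against 345 and 165 (-0.80 ± 0.45). Il21, a cytokine of helper T cells, stood at 53 and 52 against 7 and 11, and Il10, an anti-inflammatory cytokine, at 432 and 254 against 456 and 563. Il2 overlapped, at 348 and 190 against 171 and 209.

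Most other genes of type 17 and gamma delta cells did not follow Il22 and Il17f. Of 20 tested, a list that holds Il22 too, 15 had a negative and 5 a positive difference. The pairs did not overlap for 3 on the higher and 8 on the lower side (15% and 40%). The median was -0.41, or -0.01 without CSF1Ri+CD40 3. Rora, a transcription factor of these cells, stood at 1555 and 1716 against 1326 and 1240. Il23r, the receptor that sustains them, stood at 220 and 212 against 130 and 127. Trdc, which encodes the invariant part of the delta chain, stood at 3686 and 7133 against 3061 and 3123, and Aqp3, a water and glycerol channel, at 978 and 1373 against 678 and 220.

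Genes of the CD40 axis and of its tumor necrosis factor family divided into 13 higher and 16 lower (median -0.02). Cd40 itself overlapped, at 200 and 148 against 156 and 85. Cd40lg (chrX:57212143-57224042), its ligand on activated helper T cells, stood at 921 and 1035 against 648 and 531, a log2 difference of -0.73 ± 0.31 (unadjusted p = 0.0364). Tnfsf8, the ligand of CD30, stood at 1551 and 1846 against 1380 and 668. Traf3, an adaptor that restrains CD40 signaling, stood at 148 and 108 against 233 and 524. Among 29 NF-kB feedback genes and targets, 20 were higher and 9 lower (median 0.11). Without CSF1Ri+CD40 3 the NF-kB median was 0.03, with 16 of 29 higher, without CSF1Ri+CD40 1 it was 0.07, and without CSF1Ri 1 it was 0.17. Bcl3, an atypical NF-kB inhibitor, stood at 60 and 37 against 160 and 98, and Nfkbia at 7347 and 4941 against 8990 and 8310.

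Genes switched on within minutes of stimulation or tissue digestion lay mostly higher. Of 26 AP-1 and immediate early genes, 20 had a positive difference, with 12 not overlapping on the higher and 0 on the lower side (46.2% and 0%), and the median was 0.33; without CSF1Ri 6 it was 0.17 and without CSF1Ri+CD40 3 it was 0.20. Dusp1, a phosphatase that ends kinase signals, stood at 1285 and 882 against 1947 and 1895, and Klf4 at 59 and 40 against 171 and 194. The core factor gene Fos did not separate, at 3616 and 4153 against 3895 and 4300. Of 23 early genes of antigen receptor signaling, 16 were higher, 9 without overlap on the higher and 3 on the lower side (39.1% and 13%), and the median was 0.42, or 0.26 without CSF1Ri 6. Nr4a1, an immediate target of the T cell receptor, stood at 445 and 291 against 658 and 649 (0.86 ± 0.39), and Dusp5 at 427 and 288 against 524 and 1022. Lower without overlap were Ptpn22, a phosphatase that restrains receptor signals (4125 and 4341 against 3276 and 2631), and Dusp6, which acts on ERK (1237 and 1529 against 1132 and 999). Egr2 overlapped at 298 and 176 against 201 and 107. Digestion was the same by the labels for every pool, and its part in these values was not tested.

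Proliferation genes leaned higher as well. Of 25 mitosis genes, 20 had a positive difference, 12 did not overlap on the higher and 2 on the lower side (48% and 8%), and the median was 0.19. Of 24 S phase genes, 19 were positive, with 11 and 1 not overlapping (45.8% and 4.17%) and a median of 0.18. Mki67, present in cycling cells, stood at 1731 and 1118 against 2151 and 2084 (0.61 ± 0.32). Cenpe, a motor protein of the kinetochore, stood at 245 and 390 against 892 and 675, a log2 difference of 1.32 ± 0.38 (unadjusted p = 0.00545), and Bub1, a spindle checkpoint kinase, at 120 and 64 against 251 and 258. Kif11, another mitotic motor, lay on the other side at 520 and 730 against 300 and 441. Of 21 glycolysis genes 16 were positive (median 0.12, and -0.16 without CSF1Ri+CD40 1). The S phase median was 0.11 without CSF1Ri+CD40 1. Both glucose transporter genes lay higher: Slc2a1 stood at 636 and 771 against 1358 and 917, and Slc2a3 at 484 and 574 against 900 and 849.

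**Figure D3:**
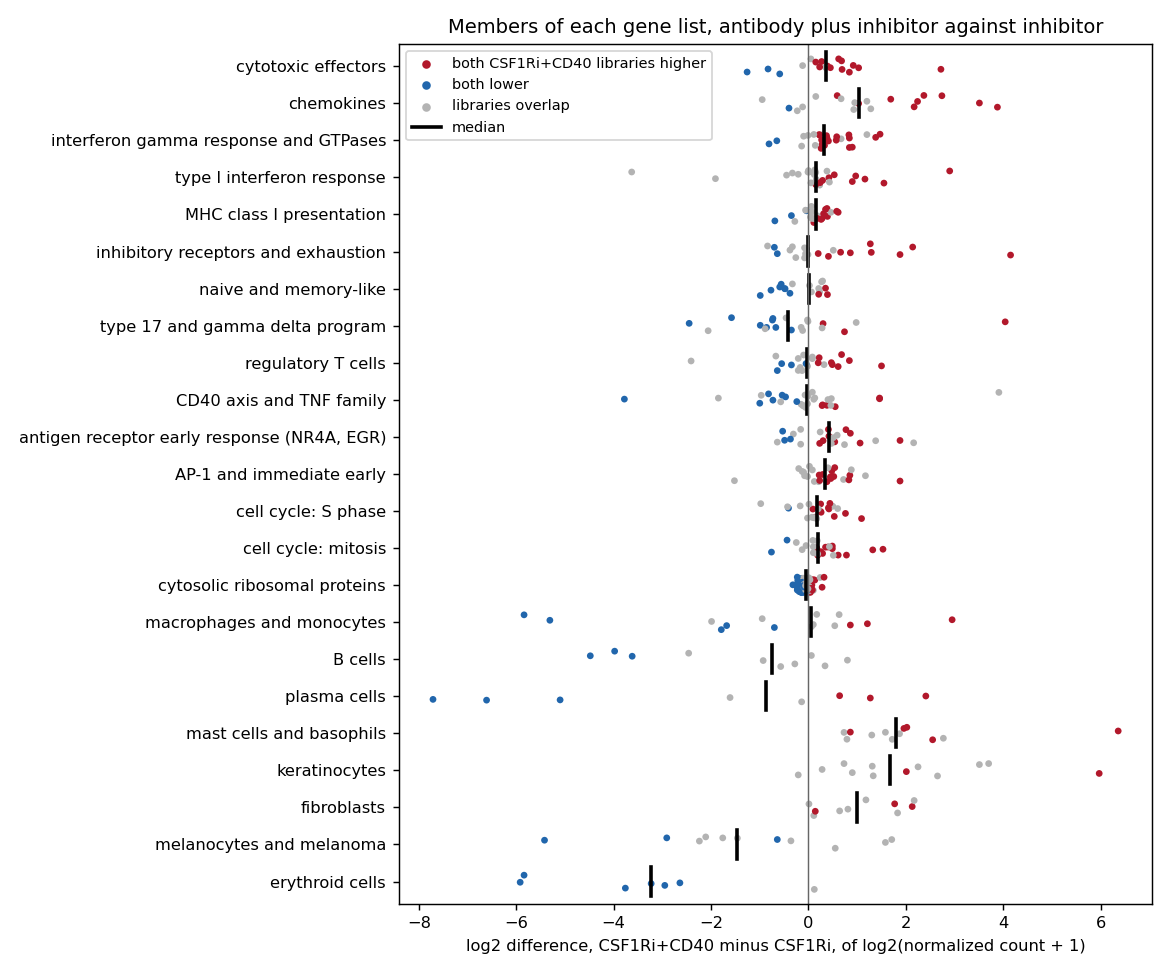
Log2 difference between CSF1Ri+CD40 and CSF1Ri for each tested member (points) of 23 gene lists, with the list median (black bar). Red members lie higher and blue members lower in both CSF1Ri+CD40 libraries, and grey members overlap; chemokine, mast cell and keratinocyte medians lie above 1 and the erythroid median at -3.23.

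Markers of other cell types differed between the pools. Csf1r, the inhibitor's target and the defining receptor of macrophages, stood at 99 and 133 with the inhibitor and at 30 and 41 with both agents, a log2 difference of -1.68 ± 0.63 (unadjusted p = 0.0221). The inhibitor blocks the kinase, so transcript levels of Csf1r do not check its action on the protein. Adgre1, which encodes F4/80, stood at 41 and 77 against 0 and 0, lower by at least 19.7-fold if 0 is set to a floor of 3 counts in each library. Arg1, an arginine-degrading enzyme of tumor macrophages, stood at 193 and 113 against 13 and 0, and Spp1, a secreted matrix protein of theirs, at 1598 and 1169 against 452 and 344. The lysosomal Cd68 overlapped on the other side, at 159 and 292 against 266 and 419, as did Lyz2, at 144 and 182 against 161 and 344. Of the 15 macrophage genes tested, 8 were higher and 7 lower (median 0.06). The pairs did not overlap for 3 on the higher and 5 on the lower side (20% and 33.3%). The whole list summed to 15771 and 15220 against 15372 and 16598.

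The B cell genes that separated lay lower, and those of plasma cells lay on both sides. Of 10 B cell genes, 7 had a negative difference and 3 did not overlap on the lower side (30%, median -0.75, or -0.29 without CSF1Ri 1 or without CSF1Ri+CD40 3); the list summed to 6268 and 4543 against 5919 and 4802. Ms4a1, which encodes CD20, stood at 118 and 76 against 36 and 0, while the receptor chain Cd79a overlapped at 168 and 23 against 65 and 98. Of 8 plasma cell genes, 3 lay lower and 3 higher without overlap (37.5% each). Jchain, which links antibody polymers, stood at 683 and 63 against 0 and 0, and Mzb1, an antibody-folding protein, at 342 and 27 against 0 and 0, at least 124-fold and 61.5-fold lower against the same floor. The CSF1Ri pair itself differed more than 10-fold in both genes. On the higher side were Xbp1, a factor of secretory cells (758 and 747 against 1297 and 1061), Sdc1, a proteoglycan that epithelial cells also carry (27 and 50 against 105 and 379), and Prdm1, which T cells express too.

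Mast cell and basophil genes were higher for all 12 tested (median 1.79), with 5 not overlapping (41.7%). CSF1Ri+CD40 1 held most of this RNA: the list of 15 summed to 14508 there and to 3099 in CSF1Ri+CD40 3, against 4303 and 1457 with the inhibitor. Ms4a2, the beta chain of the IgE receptor, stood at 2 and 0 against 210 and 95, a log2 difference of 6.36 ± 1.23 (unadjusted p = 3.20e-04, adjusted p = 0.743 in limma). Cma1, a mast cell chymase, stood at 370 and 114 against 3118 and 470. The proteases Cpa3 (408 and 185 against 2840 and 356) and Tpsb2 (706 and 338 against 3007 and 482) overlapped. Without CSF1Ri+CD40 1 the median of the list was 1.05 and without CSF1Ri 6 it was 0.64.

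Keratinocyte genes (11 of 12 positive, median 1.67) and fibroblast genes (10 of 10, median 1.00) followed CSF1Ri+CD40 3. The pairs did not overlap for 2 keratinocyte genes (16.7%) and 3 fibroblast genes (30%), all on the higher side, against 18.2% of all genes. Without CSF1Ri+CD40 3 the medians were 0.46 and 0.03, and without CSF1Ri 1 the keratinocyte median was 0.48. Keratinocyte genes summed to 517 and 871 with the inhibitor, to 824 in CSF1Ri+CD40 1 and to 3790 in CSF1Ri+CD40 3, and fibroblast genes to 3217 and 2888, 3190 and 9488. Krt14, a keratin of basal skin cells, stood at 108 and 104 against 218 and 843, and Sparc, a matrix protein, at 704 and 420 against 454 and 3353. Anxa8 (chr14:34085981-34100571), an annexin of epithelial cells, was the gene with the smallest p of the whole comparison. It stood at 0 and 0 with the inhibitor and at 47 and 81 with both agents, at least 21.3-fold higher (adjusted p = 0.4, limma). Every Control library, at 83, 187 and 164, and every CD40 library, at 55, 135 and 70, held it, so that the 0 values were those of the CSF1Ri pair.

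Erythroid genes lay lower in 6 of 7, all 6 without overlap (85.7%), with a median log2 difference of -3.23, or -1.70 without CSF1Ri+CD40 1. Hemoglobin transcripts summed to 1288 and 2695 with the inhibitor and to 13 and 474 with both agents. Hbb-bt, a beta globin, stood at 130 and 273 against 0 and 10, a log2 difference of -5.84 ± 1.08 (unadjusted p = 2.29e-04, adjusted p = 0.743 in limma), and Hba-a1, an alpha globin, at 418 and 923 against 10 and 191. Without CSF1Ri+CD40 3, Hbb-bs passed the threshold (log2 difference -9.92, adjusted p = 0.00941 in limma, assuming that the lone CSF1Ri+CD40 library varies like those of the other groups). Melanocyte genes were lower for 8 of 11 (median -1.46), but their sums were 840 and 915 against 564 and 1658, and the median was 0.56 without CSF1Ri+CD40 1. Tyr, the pigment enzyme whose promoter drives the recombinase, stood at 30 and 58 against 0 and 0. It was also at 0 in every Control library, and at 81, 0 and 0 in CD40. The part of these other cells in the values of the T cell genes was not tested.

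**Figure D4:**
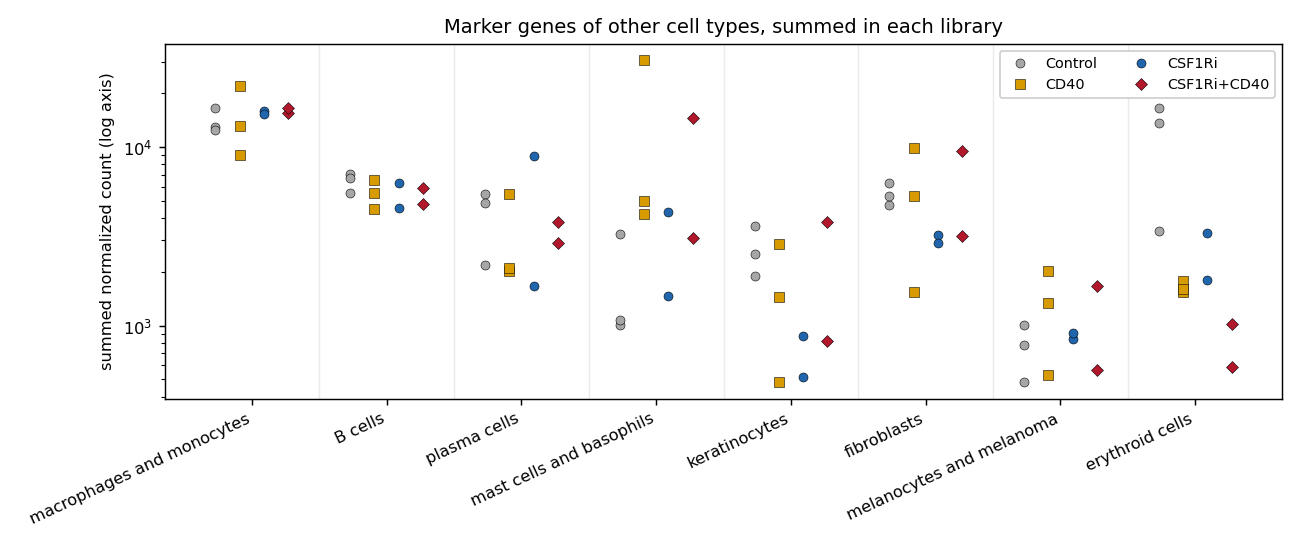
Summed normalized counts (log axis) of the marker genes of 8 other cell types in each library of the 4 groups. Mast cell genes are highest among the 4 libraries compared in CSF1Ri+CD40 1 (14508), keratinocyte and fibroblast genes in CSF1Ri+CD40 3 (3790 and 9488), and erythroid genes are lower in both CSF1Ri+CD40 libraries than in any other.

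Ranked by size among genes with a mean of at least 100 and pairs that did not overlap, the 12 largest differences on the higher side included the T cell genes Il22 and Gzmk. Others are genes of skin or stroma. Wif1, a secreted Wnt inhibitor, stood at 1 and 0 against 108 and 911, and Igfbp5, which binds insulin-like growth factors, at 0 and 0 against 101 and 299. Gja1, a gap junction protein, stood at 48 and 20 against 155 and 683, and Fstl1, a secreted glycoprotein of mesenchyme, at 43 and 44 against 142 and 1010. Serpine2, a secreted protease inhibitor, stood at 27 and 63 against 174 and 524. In each of these 5 genes CSF1Ri+CD40 3 was the highest of the 4 libraries, as it was for Fxyd3 (11 and 29 against 70 and 432), Ptn (65 and 8 against 170 and 280) and Sostdc1 (41 and 0 against 158 and 225). Of the others, Maml1, a coactivator of Notch, stood at 58 and 7 against 190 and 290, and Pfkm, a phosphofructokinase of glycolysis, at 46 and 6 against 199 and 178. The 12 on the lower side included the globins and Jchain. Most of the rest were near 0 in 1 CSF1Ri+CD40 library only. In CSF1Ri+CD40 3 these were Alg12, a mannosyltransferase (145 and 297 against 56 and 1), Smarcal1, a DNA annealing helicase (208 and 225 against 101 and 1), Zfp747 (178 and 155 against 84 and 0), Wdr5b (156 and 187 against 95 and 1) and Angptl4, a lipase inhibitor (122 and 191 against 111 and 0). In CSF1Ri+CD40 1 they were Gk, glycerol kinase (133 and 197 against 0 and 125), and Npy, a neuropeptide (201 and 156 against 4 and 96). Depdc5, a restraint on the growth kinase mTORC1, was low in both (151 and 216 against 38 and 14). Without CSF1Ri+CD40 1, Alg12 and Smarcal1 were among 6 genes that passed the threshold on the lower side, each at an adjusted p of 0.0402 (limma). That fit sets CSF1Ri+CD40 3 alone against the CSF1Ri pair, takes the spread from the other groups, and so restates that this library was near 0. The nuclear RNA Malat1, often high in damaged cells, did not separate, at 34141 and 21997 against 20146 and 48947.

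The same antibody without the inhibitor, CD40 against Control, gives a second look at its differences, from 6 libraries that share none with the 4 compared here. Across the 13546 genes the 2 sets of log2 differences had a Pearson correlation of 0.00, and of 0.02 over genes with a mean of at least 100; genes are not independent replicates. Cytotoxic effector genes had medians of 0.37 with and 0.38 without the inhibitor, but 12 lay higher and 3 lower without overlap with it, against 1 and 1 without it. Of all genes, 4.45% lay higher and 5.05% lower without overlap between the 3 CD40 and 3 Control libraries, which separate less often than 2 against 2. Mast cell genes had medians of 1.79 and 2.86, and erythroid genes of -3.23 and -2.95. Medians lay on opposite sides for immediate early genes (0.33 and -0.64) and for early genes of antigen receptor signaling (0.42 and -0.51). The same held for keratinocyte genes (1.67 and -1.18) and for fibroblast genes (1.00 and -1.88). Few of these genes separated CD40 from Control. Of 26 immediate early genes 0 lay higher and 2 lower, of 23 antigen receptor genes 3 and 3, and of 12 keratinocyte genes 0 and 2. Immediate early genes summed to 78984, 59485 and 64621 in Control and to 49779, 75881 and 33706 in CD40. No fibroblast gene separated CD40 from Control: the list summed to 4739, 5304 and 6281 in Control and to 9824, 5295 and 1552 in CD40, with CD40 1 above and CD40 3 below every Control library. Lag3, at 109, 166 and 96 in Control and 283, 330 and 437 in CD40, lay higher with the antibody in both settings, as did Prf1 and Entpd1.

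No gene passed in the test of whether the antibody's difference was unequal with and without the inhibitor (limma interaction). An adjusted p under 0.05 was found for 0 of 13546 genes (0%), and the smallest adjusted p was 0.466. At an unadjusted p under 0.05 there were 601 genes, against 677 expected by chance. Groups that did not overlap, on opposite sides in the 2 settings, were found for 215 genes (1.59%). Il17a (unadjusted p = 7.04e-05) and Anxa8 (9.75e-05) both had the smallest adjusted p, while Il17f had an unadjusted p of 0.00594 (limma interaction). Il17a stood at 3182, 3672 and 4222 in Control and at 485, 155 and 128 in CD40, a log2 difference of -4.10 beside -0.02 with the inhibitor. It was the 1 gene of 13546 (0.00738%) called in CD40 against Control (adjusted p = 0.0127, limma), while its interaction of 4.08 did not pass (adjusted p = 0.466). Il22 stood at 191, 294 and 231 in Control and at 12, 2 and 67 in CD40, so that it was low with either agent and at 455 and 419 with both (interaction 8.13, unadjusted p = 3.85e-04, adjusted p = 0.987). Il17f stood at 3196, 7086 and 6212 in Control and at 2058, 188 and 86 in CD40 (interaction 4.75, adjusted p = 0.987). When CD40 1, the CD40 library highest in Il17a and Il17f, was left out, both passed the interaction test, with adjusted p of 0.00237 and 0.0122 (limma). That library lay nearest to Control for both genes, so its removal widens their difference and is no separate test. Leaving out CD40 2 alone or CD40 3 alone gave 0 such genes. Klrg1 stood at 2499, 3558 and 3130 in Control and at 1820, 1670 and 2161 in CD40 (interaction 1.53, unadjusted p = 4.49e-04, adjusted p = 0.987).

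**Figure D5:**
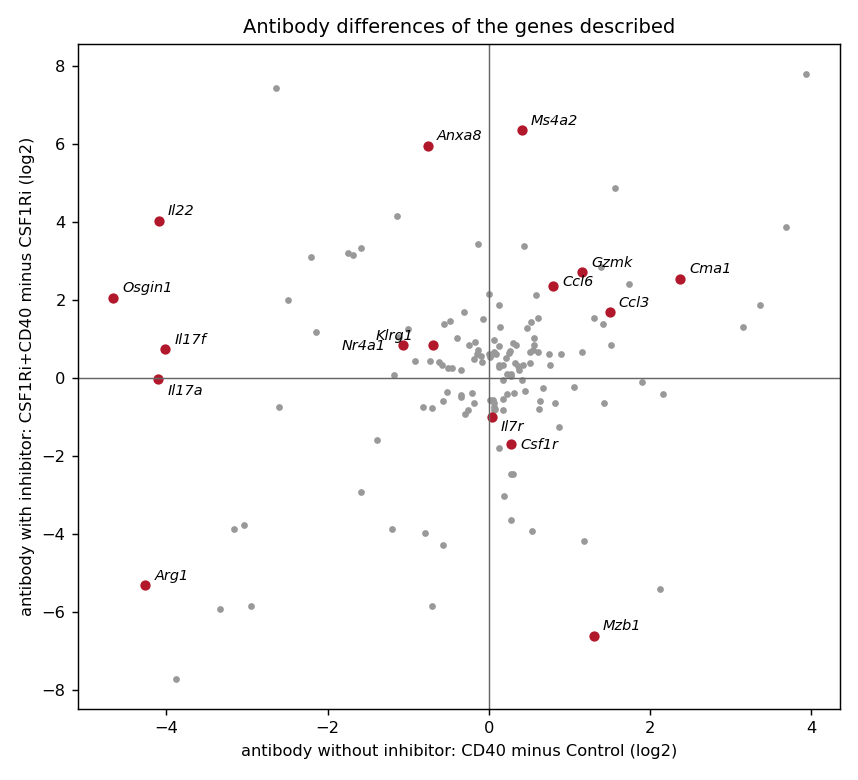
Antibody difference without the inhibitor (x axis, CD40 minus Control) against the difference with it (y axis, CSF1Ri+CD40 minus CSF1Ri), both in log2, for the genes described; red points are labelled examples. Il22, Osgin1, Nr4a1 and Klrg1 lie in the upper left, lower without and higher with the inhibitor, whereas Gzmk, Ccl3, Ccl6 and Cma1 lie in the upper right.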

How the data were processed

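RNA-seq libraries were made from T cells of mouse melanomas, per the labels' titles, with a non-stranded low-input kit from 50 ng of RNA and 75-base paired reads. Per the submitters' processing notes, STAR, HTSeq, DESeq2 and GRCm38 (mm10) were used; versions are not given in the sources used here. The deposited values are a score: counts normalized by the authors and rounded to whole numbers, so that no count model was fitted. Without strand, reads of overlapping or antisense genes cannot be told apart, and 27 names that had been turned into numbers were not named.

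Values were transformed to log2(value + 1). limma 3.58.1 in R 4.3.3 fitted 4 groups to all 10 libraries, with a trend of variance on mean, and gave 3 two-sided contrasts: CSF1Ri+CD40 minus CSF1Ri, CD40 minus Control, and their interaction. p-values were adjusted by Benjamini-Hochberg over the 13546 genes, with a threshold of 0.05. The fit was tested on simulated data. The members, gene lists and comparisons were chosen with earlier results of these data known. Genes were named by these rules: the 12 largest differences in each direction among genes with a mean of at least 100, up to 4 members of each list described with the smallest p, and a set of T cell genes; other list members named were chosen after their values were seen. For a group at 0, folds used a floor of 3 normalized counts per library. Reads per library were estimated from the spacing of low values. Promoters came from RefSeq (GRCm38.p6). Alternatives changed the libraries, pseudocount, filter, scaling and variance model. A few genes are not reported here.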

Additional observations from a re-analysis of the deposited data

Results flagged for a closer look

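For 12 of the genes examined, the antibody's difference lay in opposite directions with and without the inhibitor, with groups that did not overlap in either setting. The interaction test did not pass for any of them (adjusted p = 0.987 for each, limma), and 1.59% of all genes tested show the same pattern.

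Among cytokines, the interaction was 8.13 on the log2 scale for Il22 and 4.75 for Il17f. Receptors and signaling genes of activated T cells included Klrg1 at 1.53, Nr4a1 at 1.92, Cd69 at 1.04 and Rgs1 at 1.18. Nr4a1 stood at 445 and 291 with the inhibitor and at 658 and 649 with both agents. The integrin chain gene Itgb7 had an interaction of 0.78, from 3038 and 3524 with the inhibitor to 3800 and 4100 with both agents. Prim1, which encodes the DNA primase catalytic subunit, had one of 1.35, at 796 and 768 against 1058 and 1070.

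Osgin1, a gene induced by oxidative stress, had an interaction of 6.72. It stood at 80, 62 and 72 in Control and at 22, 0 and 0 in CD40, and at 86 and 75 with the inhibitor against 323 and 352 with both agents. On the other side was Cd247, the zeta chain of the T cell receptor complex, with an interaction of -0.62 (6404 and 7629 against 5647 and 4989). So were the phosphatase gene Dusp6 with -0.68 (1237 and 1529 against 1132 and 999) and the costimulatory receptor gene Icos with -0.46 (15410 and 15026 against 14736 and 14582). For Icos the log2 difference was only -0.05 ± 0.24 with the inhibitor, beside 0.41 without it.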

How the results depend on the processing

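With 21 alternatives of libraries, pseudocount, filter, scaling and variance model, the comparison of CSF1Ri+CD40 with CSF1Ri gave no call under any setting but 3. Without a trend of the variance, 10 genes were called higher and 5 lower, Anxa8 among them (log2 difference 5.97, adjusted p = 0.00969 in limma), and 9 in the interaction; the cause was not tested. Leaving out 1 library at a time, the calls ran from 0 to 6 on the lower side (6 without CSF1Ri+CD40 1 and 1 without CSF1Ri+CD40 3) and from 0 to 2 in the interaction (2 without CD40 1). The genes at an unadjusted p under 0.05 ran from 180 to 852. No paired analysis was possible because the groups compared share at most the number 1, and the title of CSF1Ri 1 carries no number.

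Genes at least 2-fold apart without overlap numbered 511 higher and 373 lower with a filter of at least 50, and 1399 lower when genes above 0 in any of the 4 libraries entered; these filters change which genes are counted. With 1 library left out they ran from 854 to 1684 higher and from 790 to 1619 lower, since fewer libraries overlap less often: 1439 higher without CSF1Ri 1, 1684 and 1619 without CSF1Ri+CD40 1, and 1254 lower without CSF1Ri+CD40 3.

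Of 149 genes named, 15 changed sign under an alternative. With 1 library left out, the log2 differences ran from -0.01 to 0.23 for Cd3e, -0.74 to 0.06 for Cd4, -1.06 to 1.75 for Cd79a, -0.67 to 2.01 for Cxcl10, -0.02 to 0.18 for Fos and -1.81 to 1.60 for Gbp5. They ran from -0.32 to 0.25 for Havcr2, -0.17 to 0.14 for Il17a, -0.01 to 1.08 for Lyz2, -0.44 to 0.84 for Malat1, -0.44 to 0.96 for Ncr1 and -0.64 to 0.13 for Pdcd1. The ranges were -0.26 to 2.62 for Sparc, -0.02 to 2.62 for Tpsb2 and -0.75 to 0.29 for Xcl1. The median of the exhaustion genes was 0.34 without CSF1Ri 1. With upper quartile scaling the median of all genes was -0.05, against -0.01 in the main fit. Low normalized counts limit the macrophage, plasma cell, B cell and erythroid genes, and 2 libraries a group limit every value.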

Other observations

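Of 76 cytosolic ribosomal protein genes, 53 had a negative difference, and the median log2 difference was -0.05. Of the 76, 9 lay higher and 29 lower without overlap (11.8% and 38.2%, against 18.2% and 17.5% of all genes). Without CSF1Ri+CD40 1 the median was 0.00, with 38 of 76 higher. Apoptosis regulators had 13 of 18 genes on the higher side and a median of 0.13. Without overlap, 9 lay higher and 1 lower (50% and 5.56%).

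Among lipid genes, 9 were higher and 9 lower (median 0.03). Scd2, a fatty acid desaturase, stood at 228 and 217 with the inhibitor and at 606 and 872 with both agents, a log2 difference of 1.70 ± 0.43 (unadjusted p = 0.00233). Hadha, an enzyme of mitochondrial fatty acid oxidation, lay on the other side at 1374 and 1068 against 678 and 721 (-0.79 ± 0.25). Asns, which makes asparagine, stood at 913 and 1091 against 594 and 477 (-0.91 ± 0.32), and Creld2, a chaperone-like protein of the endoplasmic reticulum, at 416 and 224 against 730 and 536 (1.03 ± 0.39).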
